A study of Mus musculus with 48 samples.

Results

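The liver RNA of 35 interferon-stimulated genes was followed in male Wfs1 mutant mice given valproic acid (VPA) or saline. The genes were chosen by name as targets of interferon signalling, with earlier results of these data known. Each was found through its gene symbol in the annotation of the array's probesets, the groups of probes that measure 1 transcript. Of the 35 genes, 30 had a probeset with a symbol of their own, and these 30 are counted below, of 19938 symbols and 35556 probesets in all. Isg15, Gbp2, Gbp6 and Igtp were measured only by probesets shared with near copies or neighbours and are given apart, and Ifi44 was not matched to a probeset here. Wfs1 encodes wolframin, which sits in the membrane of the endoplasmic reticulum. KO mice (Wfs1-/-) had both copies invalidated, HZ mice (Wfs1+/-) carried 1 mutated copy and WT mice (Wfs1+/+) none. Each genotype was divided into mice that received VPA at 300 mg/kg and mice that received saline at 10 mL/kg, both daily and intraperitoneally for 12 weeks from an age of 4 to 6 weeks, with 8 mice in each of the 6 groups. All groups shared a glucose tolerance test (2 g/kg) 24 hours after the last injection and were killed 24 hours later, at 16 to 18 weeks, so no mouse was free of glucose loading.

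Interferons are secreted proteins that warn cells of viruses and other pathogens. Types I and III signal through their receptors to a complex that holds STAT2 and IRF9 and binds an interferon-stimulated response element (ISRE) near the target genes, and type II interferon acts mainly through gamma-activated sites (GAS). The target genes encode sensors of foreign RNA, factors that amplify the signal, antiviral effectors and parts of the antigen presentation machinery, and in the liver both hepatocytes and Kupffer cells, the resident macrophages, express them.

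The genes' promoters were examined for these elements, and the stretches around the matches are shown for the 5 genes that changed in at least 1 comparison below and held an ISRE core, defined as GAAANNGAAA on either strand. The sequences are from RefSeq, build GRCm38.p6, read 5′ to 3′ on the strand of the gene, with the matched letters in capitals (TTTCNNTTTC is the core read on the other strand).
Rsad2, chr12:26456543-26456592, minus strand: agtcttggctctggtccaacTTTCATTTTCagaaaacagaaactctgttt
Ifit1, chr19:34640765-34640833, plus strand: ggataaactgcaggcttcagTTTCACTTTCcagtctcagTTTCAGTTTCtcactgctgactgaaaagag
Irgm1, chr11:48871415-48871470, minus strand: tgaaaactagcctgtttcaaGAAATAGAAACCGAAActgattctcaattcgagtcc
Ifih1, chr2:62646206-62646243, minus strand: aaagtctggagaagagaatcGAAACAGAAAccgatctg
Oas1a, chr5:120907510-120907565, minus strand: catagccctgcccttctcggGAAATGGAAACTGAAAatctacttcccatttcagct
Ifit1, Irgm1 and Oas1a held 2 matches each, which in Irgm1 and Oas1a overlapped, while Rsad2 and Ifih1 held 1 each. The match of Ifih1 lay after the start of the transcript and those of the other 4 genes before it. The table gave 300 bases around the start (250 before and 50 after) for 26 of the 35 genes, and 14 of the 26 held the ISRE core, against 3.99% of 27025 genes in the whole table. The GAS core TTCNNNGAA, which is its own reverse complement, was held by 8 of the 26 genes, against 9.55% of all genes. Among 9 of the 10 genes that were lower in KO mice and had a promoter in the table, 4 held the ISRE core, and so did 7 of the 13 other counted genes with a promoter. A match is a run of letters and not a measured binding site.

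All array values are on the log2 scale after RMA, the authors' normalization, and a difference of 1 is a doubling. Differences are given with the standard error (SE) and the adjusted p from limma, fitted on all 48 arrays and adjusted over all probesets, and a gene was called at an adjusted p under 0.05. Arrays correlated with each other by 0.971 to 0.994, none was left out, and all 30 genes had a mean of at least 5 in at least 1 group. The probeset of Wfs1 itself, which covers the whole transcript and not only the invalidated part, differed by -0.15 between KO and WT mice (SE 0.07, adjusted p = 0.320), so it does not test the genotype labels. In whole liver, fewer cells of a type and less RNA per cell cannot be told apart.

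Several interferon-stimulated genes were lower in KO mice than in WT mice. Taking VPA and saline mice together, 10 of the 30 genes were called lower and none higher, which is 33.3% of the genes where 1.57% of all probesets were called lower and 1.37% higher. The 10 were the RNA sensors Dhx58 and Ifih1, the transcription factors Irf7 and Irf9, and the effectors Rsad2, Ifit1, Oasl1, Oasl2, Irgm1 and Xaf1. The difference was below 0 for 29 of the 30 genes, with a median of -0.23 and a range of -0.70 to 0.07, while the median over all probesets was 0.01 and 46.4% of them were below 0. At an unadjusted p under 0.05 there were 20 of the 30 genes, against 13.6% of all probesets. Because the list was chosen with earlier results of these data known, these shares describe the genes and do not test the list. With an index of clock phase as a covariate, 1 of the 30 genes, Oasl1, was called lower. The median difference in that fit was -0.23, with 25 genes below 0, and the calls over all probesets fell from 1046 to 131.

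**Figure D1:**
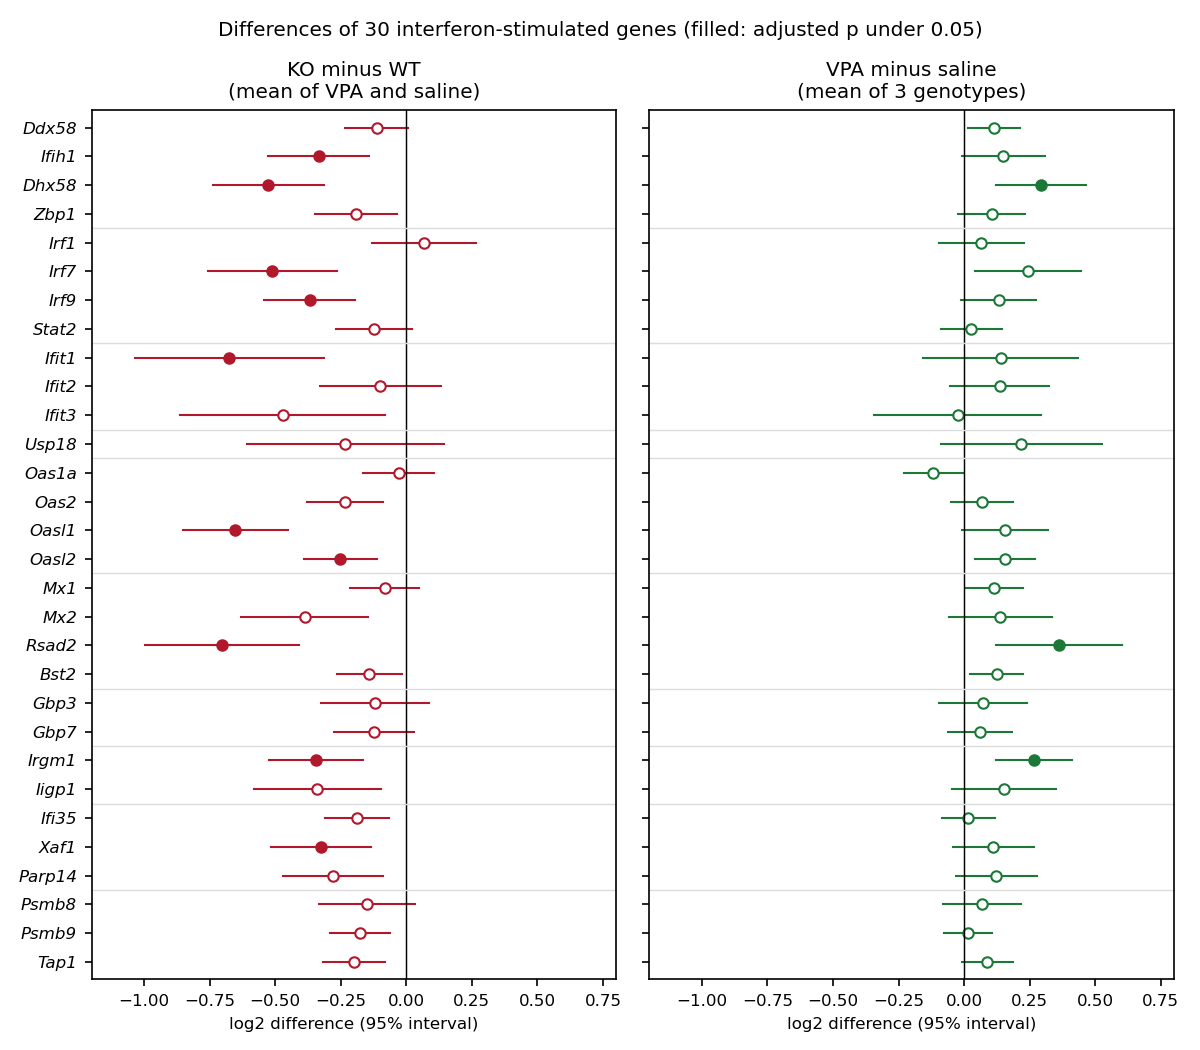
Log2 differences of 30 interferon-stimulated genes between KO and WT mice (left, mean of VPA and saline mice) and between VPA and saline mice (right, mean of 3 genotypes), with 95% intervals, grouped by role from RNA sensors at the top to antigen processing at the bottom. Filled points had an adjusted p under 0.05: 10 genes were lower in KO mice and 3 were higher with VPA.

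Among the sensors, Dhx58 encodes LGP2, a helicase that tunes the response of its relatives RIG-I and MDA5. Its log2 values in the 16 KO mice had a lowest of 7.01, a median of 7.58 and a highest of 8.38, against 7.67, 8.11 and 8.72 in the 16 WT mice. The ranges overlapped, but 10 KO mice lay below every WT mouse and 15 of 16 lay below the WT mean of their treatment. The difference was -0.53 (SE 0.10, adjusted p = 0.00145), or 0.694 times the WT level. Ifih1 encodes MDA5, a sensor of long double-stranded RNA. It had 8.57, 9.39 and 9.81 in KO mice and 9.26, 9.66 and 9.99 in WT mice (lowest, median and highest), with 6 KO mice below every WT mouse. The difference was -0.33 (SE 0.10, adjusted p = 0.0414). The sensors that were not called were Ddx58, which encodes RIG-I, at -0.11, and Zbp1, a sensor of nucleic acids in the Z form, at -0.19 (adjusted p = 0.412 and 0.207).

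Among the transcription factors, Irf7 drives the later wave of type I interferon and is itself induced by interferon. Its values were 7.82, 8.58 and 9.60 in KO mice and 8.78, 8.97 and 9.56 in WT mice (lowest, median and highest). The highest KO value, in KO saline replicate 7, exceeded that of every WT mouse, while 11 of 16 KO mice lay below the lowest WT mouse. The difference was -0.51 (SE 0.12, adjusted p = 0.00968). Irf9, the DNA-binding partner of STAT2, had 8.65, 9.08 and 9.63 in KO mice and 9.09, 9.46 and 9.90 in WT mice, and 15 of 16 KO mice lay below the WT mean of their treatment. It differed by -0.37 (SE 0.09, adjusted p = 0.00833). Stat2 differed by -0.12 (adjusted p = 0.479). Irf1, which responds strongly to type II interferon, was the 1 gene above 0, at 0.07 (adjusted p = 0.864), and its other probeset gave 0.08.

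The effectors held the largest differences. Rsad2 encodes viperin, an enzyme that makes a nucleotide analogue blocking viral RNA synthesis. Its values were 6.36, 7.33 and 8.20 in KO mice and 7.36, 7.97 and 8.78 in WT mice (lowest, median and highest), and 9 KO mice lay below every WT mouse. The difference was -0.70 (SE 0.15, adjusted p = 0.00233), or 0.615 times the WT level. Ifit1, which binds foreign RNA and blocks its translation, had 6.53, 8.03 and 9.19 in KO mice and 7.93, 8.62 and 9.26 in WT mice. Its KO mice spread over nearly the whole WT range and far below it, with 7 of them below every WT mouse, and the difference was -0.67 (SE 0.18, adjusted p = 0.0241). Its neighbours on chromosome 19 were not called, with -0.10 for Ifit2 and -0.47 for Ifit3 (SE 0.11 and 0.19, adjusted p = 0.812 and 0.225).

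Oasl1, an oligoadenylate synthetase-like protein that in mice restrains the translation of Irf7, had the lowest p of the 30 genes. The KO mice had 8.10, 8.30 and 8.99 and the WT mice 8.30, 9.07 and 9.69 (lowest, median and highest). Only WT VPA replicate 8 reached down to the middle of the KO mice: 10 WT mice lay above every KO mouse, and 15 of 16 KO mice lay below the WT mean of their treatment. The difference was -0.65 (SE 0.10, adjusted p = 3.22e-05), or 0.636 times the WT level. Its neighbour Oasl2 had 7.45, 7.64 and 8.24 in KO mice and 7.55, 7.91 and 8.38 in WT mice and differed by -0.25 (SE 0.07, adjusted p = 0.0301). Oas2 and Oas1a, whose products make the oligoadenylates that activate RNase L, differed by -0.23 and -0.03 (adjusted p = 0.0612 and 0.929), and the probeset shared by Oas1a and Oas1g by -0.25 (adjusted p = 0.122). All 4 counted genes of this family lie on chromosome 5, as does Wfs1, with Oasl1 from 114923143 to 114937911 (GRCm38), 77.9 Mb beyond the end of Wfs1. At that distance they are not beside the mutated gene, and any effect of lying on the same chromosome was not tested.

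**Figure D2:**
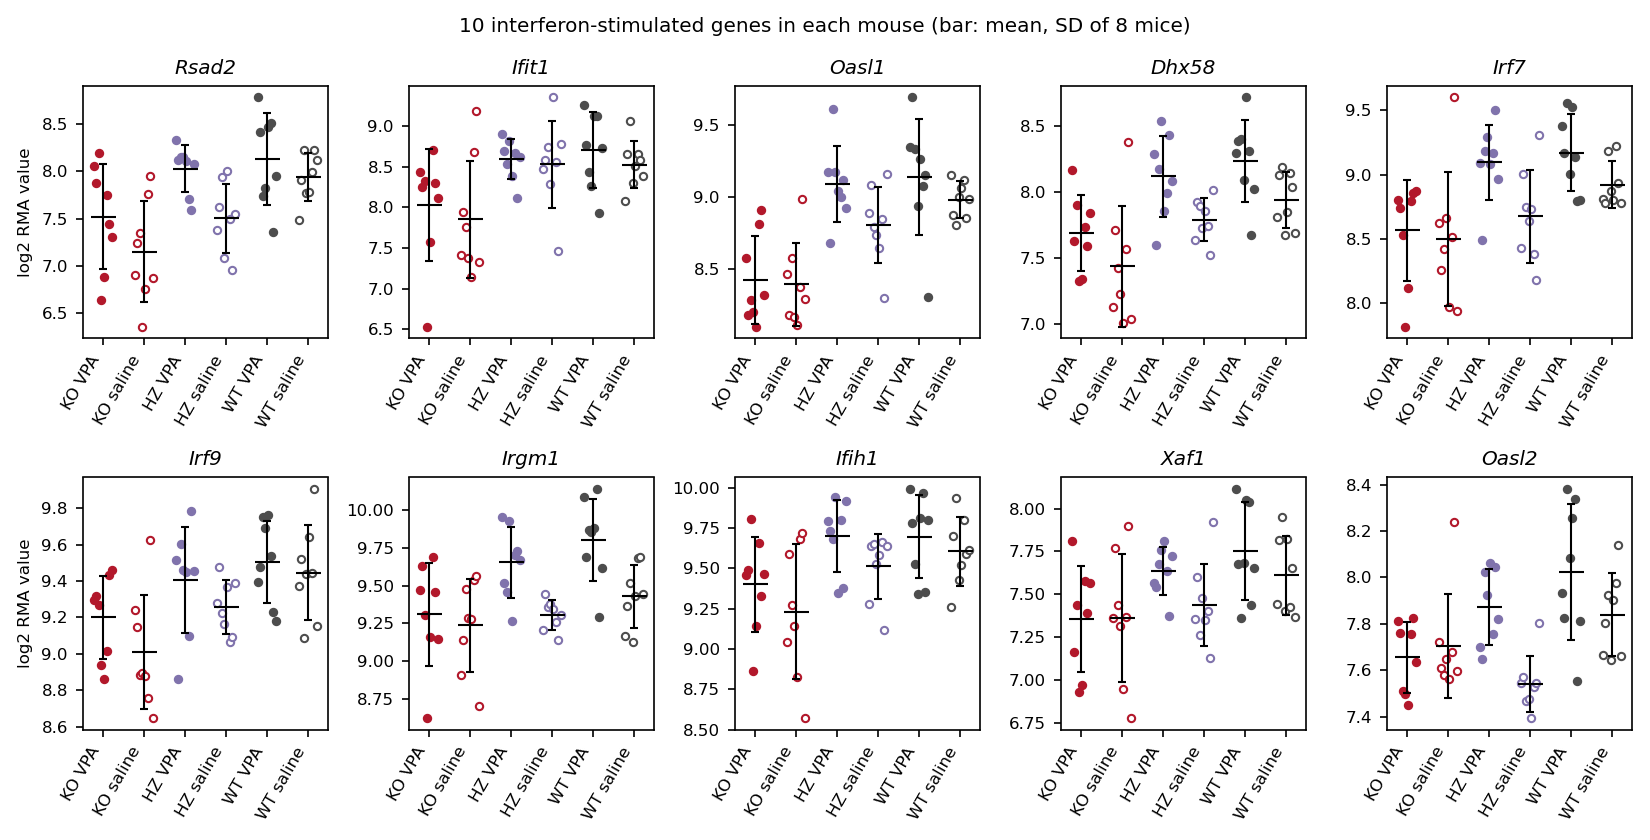
Log2 RMA values of the 10 genes that were lower in KO mice, with 1 point per mouse in the 6 groups of 8 mice and bars for the mean and SD. In Oasl1 most KO mice sit below nearly all WT mice, while in Irf7 and Oasl2 KO saline replicate 7 stands above the other KO mice.

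Irgm1, an immunity-related GTPase that acts on vacuoles holding bacteria and parasites, had 8.62, 9.30 and 9.69 in KO mice and 9.13, 9.65 and 10.1 in WT mice (lowest, median and highest). It differed by -0.34 (SE 0.09, adjusted p = 0.0197), and 7 WT mice lay above every KO mouse. The difference of Irgm1 was -0.50 in VPA mice and -0.19 in saline mice, neither of them called. Xaf1, an interferon-induced protein that promotes cell death, had 6.78, 7.38 and 7.90 in KO mice and 7.36, 7.67 and 8.11 in WT mice. Its difference of -0.32 (SE 0.09, adjusted p = 0.0458) was the closest to the threshold among the called genes. The ranges of the 2 genotypes overlapped for all 10 called genes. When each of the 48 arrays was left out in turn, the call of Xaf1 was lost in 25 fits, that of Ifih1 in 18 and that of Oasl2 in 9, and those of the other 7 genes in none.

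The other 12 counted genes, of which none was called, were the antiviral GTPases Mx1 and Mx2, the membrane tether Bst2, Usp18, which removes ISG15 from proteins and dampens the receptor, the guanylate-binding GTPases Gbp3 and Gbp7, Iigp1, Ifi35, the ADP-ribosyltransferase Parp14, the immunoproteasome subunits Psmb8 and Psmb9 and the peptide transporter Tap1. Their differences ran from -0.39 for Mx2 (SE 0.12, adjusted p = 0.0664) to -0.08 for Mx1 (adjusted p = 0.680). Tap1 was just outside the threshold, at -0.20 (SE 0.06, adjusted p = 0.0516). The shared probesets gave -0.54 for Gbp6 with 5 relatives, -0.22 for Igtp with Irgm2, -0.11 for Isg15 with Gm9706 and 0.16 for Gbp2 with Gbp2b (adjusted p = 0.129, 0.345, 0.386 and 0.659), none of which was called.

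KO and WT mice were also compared within VPA mice and within saline mice, which share no animals. Of the 30 genes, 27 were below 0 in both treatments, none was above 0 in both and 3 differed in sign (Irf1, Oas1a and Gbp3). In VPA mice the median was -0.30 and 1 gene was called, Oasl1 at -0.72 (SE 0.14, adjusted p = 0.00561), where 0.214% of all probesets were called lower and 0.191% higher. In saline mice the median was -0.19 and 2 genes were called, Oasl1 at -0.59 (SE 0.14, adjusted p = 0.0253) and Rsad2 at -0.79 (SE 0.21, adjusted p = 0.0495), where 0.498% of all probesets were called lower and 0.292% higher. Oasl1 had 8.10, 8.30 and 8.91 in KO VPA mice against 8.30, 9.21 and 9.69 in WT VPA mice, and 8.11, 8.33 and 8.99 in KO saline mice against 8.81, 8.99 and 9.15 in WT saline mice (lowest, median and highest). Rsad2 had 6.36, 7.07 and 7.96 in KO saline mice against 7.49, 7.95 and 8.22 in WT saline mice. The call of Rsad2 was lost in 36 of the 48 fits that left out 1 array and that of Oasl1 in 4, and leaving out KO saline replicate 7 instead gave 5 called genes.

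**Figure D3:**
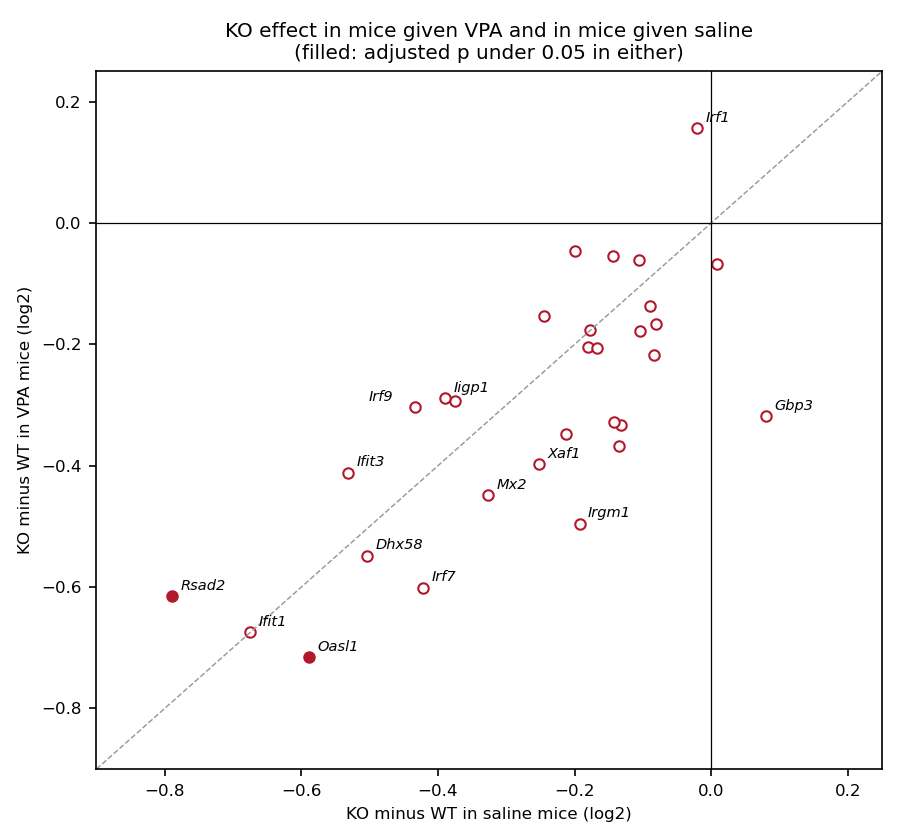
KO minus WT difference of each of the 30 genes in VPA mice (vertical axis) against that in saline mice (horizontal axis), both in log2, with the dashed line marking equal differences. Points below and left of 0 are lower in KO mice under both treatments, as 27 genes were, and filled points are Oasl1 and Rsad2.

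HZ mice were not distinguished from WT mice. None of the 30 genes was called with limma, where 0.00281% of all probesets were (1 probeset), 2 of the 30 had an unadjusted p under 0.05, and the median difference was -0.06, with 21 genes below 0. Rsad2 had the lowest difference, at -0.27 (SE 0.15, adjusted p = 0.938), and Oasl2 differed by -0.22 (SE 0.07, adjusted p = 0.589). The comparison of KO with HZ mice was added after the values were seen and uses the same KO mice as the comparison with WT. It had 3 genes called lower, where 0.779% of all probesets were: Oasl1 at -0.54, Dhx58 at -0.39 and Tap1 at -0.24 (SE 0.10, 0.10 and 0.06, adjusted p = 0.001, 0.0384 and 0.0175). The median difference was -0.20, and 29 of 30 genes were below 0.

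With VPA most of the genes had differences above 0, but few passed the test. Over the 3 genotypes, 3 of 30 genes (10%) were called higher in VPA mice and none lower, where 4.01% of all probesets were called higher and 4.60% lower. In either direction 3 of the 30 genes were called, against 3062 of all 35556 probesets, so the share called in either direction was close to that of the array. The difference was above 0 for 28 genes, with a median of 0.12, against -0.02 over all probesets, of which 56.8% were below 0. Irgm1 was 0.27 higher (SE 0.07, adjusted p = 0.0159) and had 8.62, 9.65 and 10.1 in the 24 VPA mice, against 8.70, 9.35 and 9.69 in the 24 saline mice (lowest, median and highest). Dhx58 was 0.29 higher (SE 0.09, adjusted p = 0.0245), with 7.32, 8.05 and 8.72 in VPA mice and 7.01, 7.73 and 8.38 in saline mice. Rsad2 was 0.36 higher (SE 0.12, adjusted p = 0.0466), with 6.64, 8.00 and 8.78 in VPA mice and 6.36, 7.58 and 8.22 in saline mice. These 3 genes were also among the 10 that were lower in KO mice, and within their own genotype 19 (Irgm1, Rsad2) and 20 (Dhx58) of 24 VPA mice exceeded the mean of the saline mice. The groups overlapped over most of their range, and the call of Rsad2 was lost in 27 of the 48 fits that left out 1 array. When clock phase was added to the fit none of the 3 was called: Rsad2 turned to -0.052, and Dhx58 and Irgm1 were at 0.22 and 0.11 (adjusted p = 0.970, 0.808 and 0.881). The shared probesets were not called, at 0.37 for Gbp6 with its relatives, 0.16 for Gbp2 with Gbp2b, 0.08 for Igtp with Irgm2 and -0.02 for Isg15 with Gm9706.

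Within single genotypes few of the genes passed the test. In KO mice and in WT mice none was called, where 0.0112% and 0.0703% of all probesets were. The median was 0.07 in KO mice and 0.13 in WT mice, and 0 and 2 of the 30 genes had an unadjusted p under 0.05. In HZ mice 1 gene was called higher and 1 lower, below the 4.72% and 5.76% of all probesets called in each direction, and the median was 0.17. The gene called higher was Oasl2, at 0.33 (SE 0.10, adjusted p = 0.0243), with 7.65, 7.87 and 8.06 in HZ VPA mice and 7.39, 7.54 and 7.80 in HZ saline mice (lowest, median and highest). The gene called lower was Oas1a, at -0.32 (SE 0.10, adjusted p = 0.0270), with 6.72, 6.91 and 7.20 in HZ VPA mice and 7.11, 7.19 and 7.40 in HZ saline mice. The probeset shared by Oas1a and Oas1g had the opposite sign in the same mice, at 0.23 (SE 0.12, adjusted p = 0.204), so the direction of Oas1a was not settled between its probesets. Leaving out HZ saline replicate 5 removed both calls, and leaving out HZ saline replicate 1 or HZ VPA replicate 6 removed that of Oas1a. No gene passed the test of the interaction between genotype and VPA with limma (lowest adjusted p = 0.561), where 0.0816% of all probesets did and 2 of the 30 had an unadjusted p under 0.05, so no difference of the VPA effect between genotypes was shown for any of them.

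**Figure D4:**
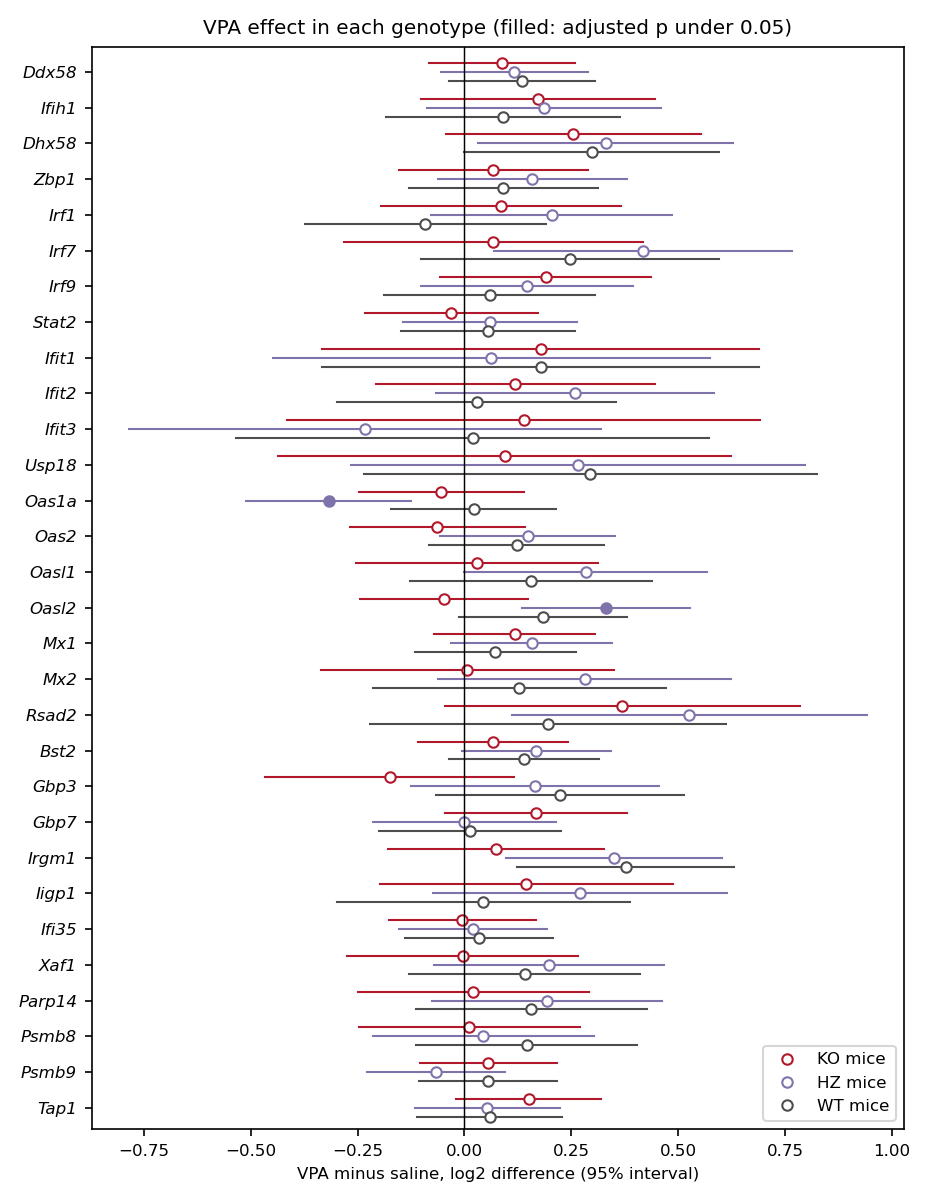
VPA minus saline difference of each of the 30 genes in KO, HZ and WT mice, in log2 with 95% intervals. The filled points are the own probeset of Oas1a (lower) and Oasl2 (higher) in HZ mice, and 19 genes were above 0 in all 3 genotypes.

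The genes varied together from mouse to mouse. After the mean of each group was removed, the 435 pairs among the 30 genes had a median Pearson correlation of 0.47 over the 48 mice, with a range of -0.11 to 0.94. The mean was 0.46, against 0.02 over all pairs of the 21789 probesets with 1 symbol. Ifih1 and Parp14 had the highest median correlations with the other genes (0.67 and 0.66), and Stat2 and Gbp7 the lowest (0.21 and 0.29). These are values of the same arrays, so the 30 genes are not independent readings of a mouse. Single mice were low or high for most genes at once. KO VPA replicate 4 was the lowest of its group for 18 of 30 genes and KO saline replicate 8 for 18, while KO saline replicate 7 was the highest of its group for 21. HZ saline replicate 7 and WT VPA replicate 7 were the lowest of their groups for 19 and 17 genes. The mean over the 30 genes was 8.23 ± 0.26 in KO VPA, 8.16 ± 0.28 in KO saline, 8.49 ± 0.15 in HZ VPA, 8.33 ± 0.15 in HZ saline, 8.53 ± 0.21 in WT VPA and 8.41 ± 0.14 in WT saline mice (SD, n = 8 each). The spread between mice was larger in KO than in WT mice for 22 of 30 genes under VPA and for 25 of 30 in saline, where it was larger for 46.1% and 50.6% of all probesets. The median SD of the 30 genes was 0.29 in KO VPA and 0.27 in WT VPA mice, and 0.31 in KO saline and 0.21 in WT saline mice. With KO VPA replicate 4 and KO saline replicates 7 and 8 left out together, a choice made after seeing the data, 9 genes were called lower in KO mice, with Ifih1 and Xaf1 no longer among them, and 5 were called higher with VPA.

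**Figure D5:**
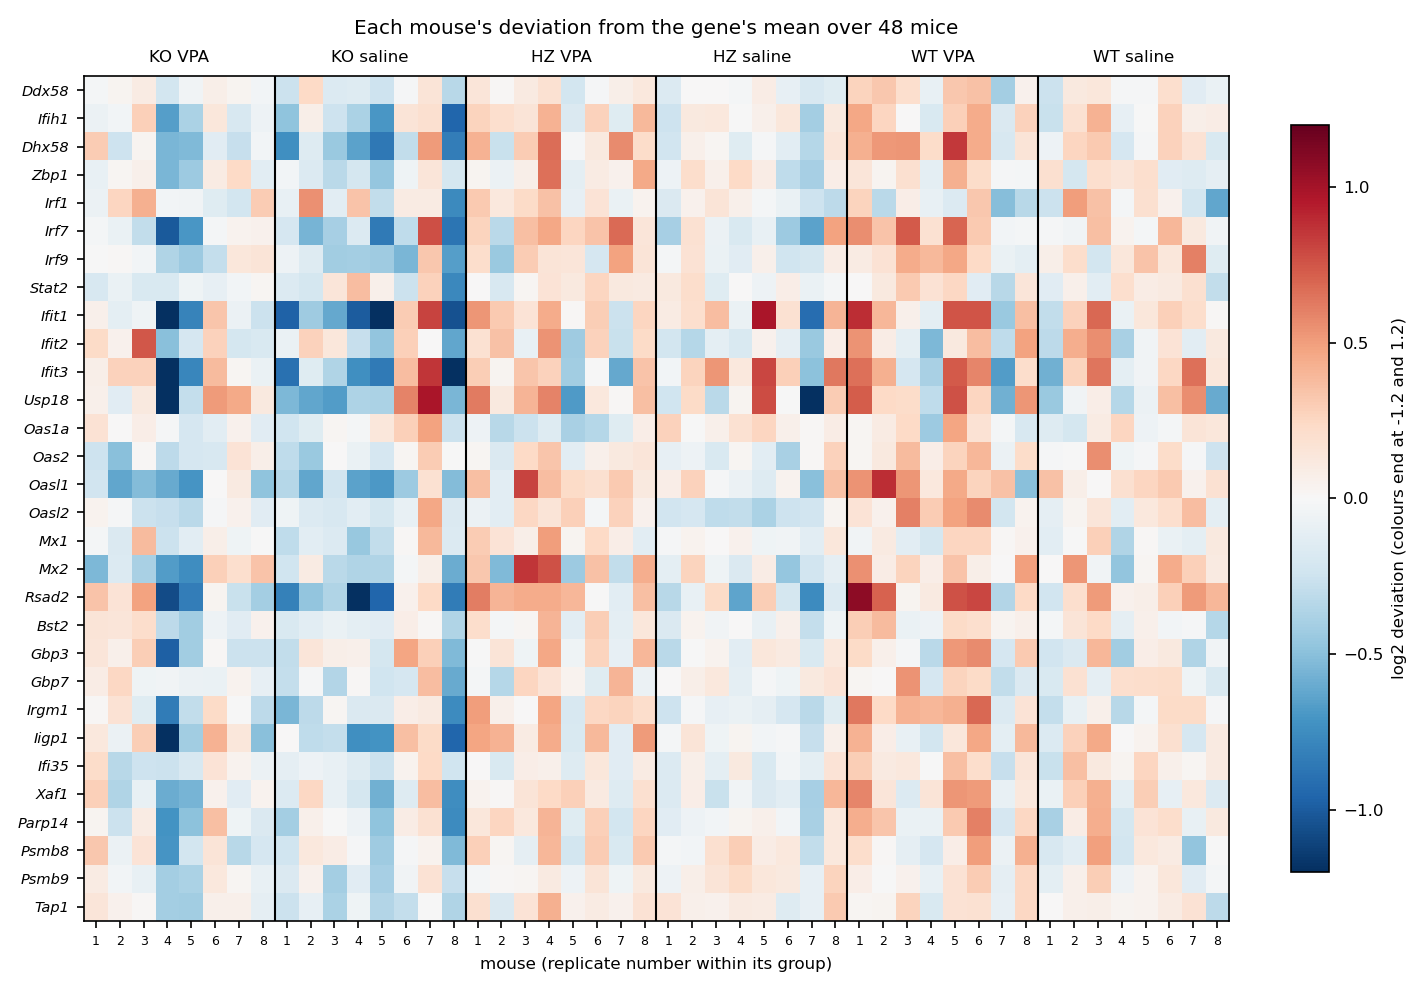
Deviation of each of the 48 mice from the mean of each of the 30 genes, in log2 (red above and blue below the mean), with the groups side by side and the replicate number under each column. Columns that are blue or red for most genes, such as KO VPA replicate 4 and KO saline replicate 8 (blue), are mice in which the genes were low or high together.

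The rest of the pathway was taken from lists chosen by role. Of 7 measured interferon genes and 9 receptors and kinases none was called in KO against WT mice, with medians of 0.05 and -0.01. Among 5 signal transducers and factors, Irf5, which acts below Toll-like receptors, was lower in KO mice at -0.53 (SE 0.12, adjusted p = 0.00524), and among 12 further sensors and adaptors Trim25, a ubiquitin ligase that activates RIG-I, at -0.24 (SE 0.07, adjusted p = 0.0406). Of 5 inhibitors, Socs3, a brake on cytokine receptors, was higher at 0.25 (SE 0.06, adjusted p = 0.0130). Of 35 further interferon-induced genes 4 were lower and none higher, where 1.57% of all probesets were lower and 1.37% higher, with a median of -0.16. These were Cmpk2, a mitochondrial nucleotide kinase beside Rsad2, at -0.48, Lgals3bp at -0.47, Herc6, the mouse ligase that attaches ISG15, at -0.41, and Ly6e, a membrane protein that alters viral entry, at -0.35 (adjusted p = 0.000406, 0.00651, 0.0134 and 0.0114).

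With VPA, 7 of the 35 further interferon-induced genes were higher over the 3 genotypes and none lower, where 4.01% of all probesets were higher and 4.60% lower, with a median of 0.13. Cmpk2 was 0.43 and Ifi27 0.35 higher (SE 0.07 and 0.09, adjusted p = 6.46e-05 and 0.00920), and the others were Samd9l, Lgals3bp, Ly6e, Sp100 and Psme1. Cmpk2, Lgals3bp and Ly6e were thus called both lower in KO mice and higher with VPA. None of the 7 interferon genes was called with VPA, with differences of -0.15 to -0.02. The group mean over these genes ran from 6.40 in HZ VPA to 6.53 in HZ saline mice. Of the receptors and kinases Il10rb was higher at 0.22, of the signal transducers and factors Stat3 was higher at 0.19 and Irf2 lower at -0.18, and of the sensors and adaptors Ikbke (0.41) and Tlr4 (0.19) were higher and Mavs (-0.22) and Trim25 (-0.20) lower.

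Markers of other liver cells and of clock phase moved with some of the same comparisons. Of 12 Kupffer cell markers 6 were higher with VPA over the 3 genotypes, among them Adgre1 and Csf1r, with a median of 0.35, where 4.01% of all probesets were higher. In HZ mice 8 were higher, with a median of 0.69, where 4.72% of all probesets were higher. With VPA none was called in WT mice or in KO mice, with medians of 0.154 and 0.125, so the calls came mainly from HZ mice. In KO against WT mice none was called, with a median of -0.11. Their mean per mouse was 8.60 to 9.25 in KO VPA, 8.37 to 9.21 in KO saline, 8.78 to 9.33 in HZ VPA, 8.09 to 8.87 in HZ saline, 8.00 to 9.45 in WT VPA and 8.01 to 9.26 in WT saline mice. Within groups, the mean of the 30 interferon-stimulated genes followed that of the Kupffer markers with r = 0.47 and rho = 0.37 over 48 mice (r = 0.37 without the 2 mice farthest on the Kupffer axis), given as a description of values from the same arrays. Liver endothelium markers had 4 of 9 higher with VPA over the 3 genotypes, 7 of 9 in HZ mice and none called in KO against WT mice. With VPA their median was 0.37 in HZ mice, 0.08 in WT mice and -0.01 in KO mice, with none called in WT or KO mice. Of 14 lymphocyte markers Cd4 was lower in KO mice (-0.35, adjusted p = 0.000207), and of 4 markers of plasmacytoid dendritic cells, which make much type I interferon, none was called in KO against WT mice or with VPA over the 3 genotypes. Of 7 hepatocyte markers Cyp2e1 (-0.084) and Tat (-0.18) were lower with VPA, and of 8 neutrophil markers Retnlg was higher (0.16) and Ly6g lower (-0.18), with none of either list called in KO against WT mice. Of 2 erythroid markers Alas2, the first enzyme of haem synthesis in red cell precursors, was lower in KO mice (-1.24, adjusted p = 6.95e-06). The other, Slc4a1, was not called in KO against WT mice (-0.09). With VPA Slc4a1 was called lower over the 3 genotypes (-0.21), where 4.60% of all probesets were lower, and in HZ mice. Within groups, the mean of the 30 interferon-stimulated genes had r = 0.24 with the liver endothelium markers and -0.32 with the plasmacytoid dendritic cell markers. It had -0.15 with the neutrophil, -0.08 with the hepatocyte and -0.004 with the lymphocyte markers. The part of cell content in the differences was not tested.

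Clock genes also differed between the groups. Of 12 measured, 7 were higher and 2 lower in KO against WT mice, where 1.37% of all probesets were higher and 1.57% lower. With VPA 3 were higher and 9 lower, where 4.01% of all probesets were higher and 4.60% lower. An index of clock phase over these genes, the mean of their standardized values signed by the phase of their peak, ran from -0.75 to 0.51 in KO VPA, -1.15 to -0.21 in KO saline, 0.57 to 1.25 in HZ VPA, -1.47 to -0.65 in HZ saline, 0.75 to 1.59 in WT VPA and -0.70 to 0.73 in WT saline mice. With this index as a covariate, 1 of the 30 genes was called lower in KO mice, Oasl1 at -0.68 (adjusted p = 0.0178), and the median over the 30 genes was -0.23, with 25 below 0. The count over all probesets in the same fit was 131, against 1046 without the index. No gene was called with VPA in that fit, nor was any other probeset, and the index separated VPA from saline mice in HZ and WT without overlap, so clock phase and VPA cannot be told apart there. Under VPA the index also separated KO mice (highest 0.51) from WT mice (lowest 0.75), so clock phase and genotype cannot be told apart in VPA mice. In saline mice the 2 genotypes overlapped. Within groups the index and the mean of the 30 genes had r = 0.09 and rho = 0.12 over 48 mice (r = 0.13 without the 2 farthest).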

How the data were processed

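Total RNA of the liver of 48 male mice was hybridized to Affymetrix Mouse Gene 1.0 ST arrays, 1 array per mouse. The deposited values are log2 probeset summaries made by the authors with RMA (per their processing notes, Affymetrix Expression Console 1.1.2800.28061), which were used with no further normalization. RMA gives all arrays the same distribution, so a shift of all genes together would not be seen. Genotype, treatment and replicate number were taken from the sample titles. limma 3.58.1 in R 4.3.3 estimated 1 mean per group from all arrays (lmFit, contrasts.fit and eBayes, 42 residual degrees of freedom), with two-sided tests and Benjamini-Hochberg adjustment across all 35556 probesets. The interaction was a moderated F test. The number of arrays limits the precision.

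The 35 genes and the lists of pathway genes, cell markers and clock genes were chosen with earlier results of these data known. All 35 genes are named by role, and a gene was represented by its probeset with 1 symbol and the highest mean, of 21789 such probesets (1621 carried several symbols and 12146 none). The lowest, median and highest values of the mice compared are given for called genes, at most 12. They are not given for the added comparison of KO with HZ mice. Promoters are those of RefSeq, and windows were printed for at most 6 called genes holding an ISRE core.

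The alternatives were array weights, a trended and robust eBayes, no moderation, centring on the array median, dropping probesets whose group means were all under 5 or that lacked a single symbol, blocking on the replicate number, fitting only the groups compared, the clock index as a covariate, stricter and the study's own unadjusted thresholds, and leaving out each array. Leaving out 3 KO mice and comparing KO with HZ mice were added after seeing the data. Plots used matplotlib 3.10.9 under Python 3.11.15.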

Additional observations from a re-analysis of the deposited data

Results flagged for a closer look

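In each of the 180 sets of 8 mice (30 genes in 6 groups), the highest and the lowest mouse were compared with the nearest other mouse of the group. In 8 sets the gap was large against the whole range of the group (Dixon's criterion at 95%), where chance alone flags about 1 in 20 sets. KO VPA replicate 4 stood below its group for Ddx58 (9.60), Ifit3 (6.68) and Usp18 (7.35), and it was the lowest of its group for 18 of the 30 genes. KO saline replicate 7 stood above its group for Irf7 (9.60) and Oasl2 (8.24). HZ VPA replicate 5 stood below its group for Usp18 (8.31), HZ saline replicate 8 above its group for Oasl2 (7.80) and WT saline replicate 8 below its group for Tap1 (8.28). No gene's VPA effect differed between the genotypes at an adjusted p under 0.05.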

How the results depend on the processing

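The counts of called genes with VPA in WT and in KO mice, in HZ against WT mice and for the interaction were 0 under every alternative run. The 10 genes lower in KO mice were 5 with only the KO and WT arrays, 5 at an adjusted p under 0.01, 1 with the clock index and 0 at the study's thresholds, which ask for a difference of over 2-fold, and 7 to 15 when 1 array was left out. The 3 genes higher with VPA were 0 with only WT and KO arrays, with the clock index and at an adjusted p under 0.01, 1 at the study's threshold, 5 without the 3 KO mice and 2 to 5 when 1 array was left out (5 without KO saline replicate 7 or WT VPA replicate 7). With the clock index Rsad2 turned to -0.052 with VPA (adjusted p = 0.970). The 2 genes called in HZ mice were 4 with only the HZ arrays, 0 with the clock index, at an adjusted p under 0.01 and at the study's threshold, and 0 to 3 when 1 array was left out (1 without HZ saline replicate 1 or HZ VPA replicate 6, 0 without HZ saline replicate 5). The 2 genes lower in KO saline mice were 1 with the trended fit, without moderation and after median centring, 0 with array weights, only the arrays compared, the clock index, an adjusted p under 0.01 and the study's thresholds, and 5 without the 3 KO mice. When 1 array was left out they were 0 to 5: the count stayed at 2 only without WT saline 1 or 3, HZ saline 5 or 7, KO saline 6, WT VPA 1 or 7, HZ VPA 7 or KO VPA 1, 3, 4 or 5, and was 5 without KO saline 7. The 1 gene lower in KO VPA mice became 2 with array weights, with a group mean of at least 5 and with only 1-symbol probesets, 0 with only the arrays compared, the clock index and the study's thresholds, and 1 to 4 when 1 array was left out (4 without WT VPA replicate 7, 3 without KO saline 7 or KO VPA 1, 2 without KO saline 8 or KO VPA 2 or 6). The cause of these changes was not tested. Of 178 values of 18 named differences under the other settings, 138 kept their call, 39 lost it and 1 reversed. With the replicate block the counts were 10 lower in KO mice, 3 with VPA, 2 in HZ mice, 2 in KO saline and 1 in KO VPA mice, the same as without it. Of 120 same-numbered pairs of arrays from different groups, 53 had residuals correlated by over 0.1 (mean of the 120 pairs 0.05, against -0.01 for other pairs). Whether the numbers mark something that mice share was not tested. They were not taken to pair mice because neither the labels nor the study says that they do.

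After median centring the split of all VPA calls was 1871 higher and 860 lower, against 1425 and 1637, and 29 of the 30 genes were above 0, against 28. The labels carry a running number of unstated meaning that is 5 to 30 in saline mice and 59 to 84 in VPA mice, in separate runs for the groups, so any order it records cannot be told apart from the groups.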
